A study of Mus musculus with 6 samples.

Results

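Genes of the interferon response and of antigen presentation by major histocompatibility complex (MHC) class I molecules were followed in the retina of mice that lack photoreceptor cadherin, the product of Cdhr1. The set was chosen by name, with earlier results of these data known, so shares beside those of all genes are no test. It holds 39 genes: class I molecules with the genes that load them, the immunoproteasome, interferon receptors, signalling factors, sensors and regulators, and antiviral effectors. Of these, 37 had at least 1 probe set with that single symbol in the platform annotation, out of 18193 genes so named. Isg15 and Psme2 had none and were not analysed here. Each gene was read at its brightest probe set, by the mean of all 6 arrays, and all 70 probe sets of the 37 genes were kept for comparison within a gene.

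Retinal RNA of prCAD -/- mice and of wild type 129 mice, both aged about 4 weeks, was hybridised to 3 single-colour Affymetrix arrays for each genotype. Each array held the retinas of 3 mice in 1 pool, so p-values measure the spread between pools. The labels name no background strain for the mutant, so strain and genotype cannot be told apart. In a whole retina, more cells of a type and more RNA per cell cannot be told apart either. Array medians lay between 4.74 and 4.79 (log2), and with only 3 pools a group every estimate is imprecise. Cdhr1 itself checked the labels: its probe set read 11.32, 11.36 and 10.98 in wild type and 3.94, 4.20 and 4.34 in mutant replicates 1 to 3 (limma, adjusted p = 2.18e-05). Rod genes, 6 of 8 listed markers measured, had a summed level of 14.59 to 14.80 in wild type and 14.64 to 14.79 in mutant arrays on the log2 scale.

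Interferons are secreted proteins that signal infection or tissue damage. Type I interferons bind Ifnar1 and Ifnar2 and act through a complex that includes STAT2 and IRF9 and binds the interferon-stimulated response element in the promoters of antiviral genes. Interferon gamma binds Ifngr1 and Ifngr2 and, partly through IRF1, raises the immunoproteasome, the peptide transporter and class I molecules, with which cells show peptides to T cells. Neurons are known for low class I levels, and microglia and Müller glia are among its cells that can answer interferon.

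Most of the genes had a somewhat higher mean in mutant retina, with the largest median difference among the antiviral effectors, but no single gene passed the test. Of 37 genes, 32 had a higher mean in the mutant group (86.5%, background 58.4%) and 5 a lower one. The largest differences were those of Ifitm3 (1.21 on the log2 scale, 2.32-fold), H2-D1 (0.84), Ifit3 (0.63) and B2m (0.61), and the most negative was that of Tap1 (-0.08). The median difference over the 37 genes was 0.19 (quartiles 0.06 and 0.36), beside 0.02 over all 18193 genes. Within the pairs of same-numbered arrays the median was 0.19, 0.06 and 0.25.

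By limma, with p-values adjusted over all 45037 probe sets, 0 of 37 genes were called, at a background of 0.0165% of genes and 0.0111% of probe sets. With the replicate number as a block 0 were called as well, at backgrounds of 0.044% and 0.0333%, and the smallest adjusted p was 0.238, for Ifitm3. At an unadjusted p under 0.05 there were 7 of 37 genes on the higher side (18.9%, background 2.33%) and 0 on the lower side (background 1.09%). They were Irf7, Irf9, Ifih1, Ifit3, Ifitm3, Ifi35 and Bst2. With the replicate block there were 13 higher (35.1%, background 4.88%) and 0 lower (background 2.57%). The count of 7 was 2 without wild type replicate 1 and 2 without mutant replicate 1.

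Groups that did not overlap were found in 8 of 37 genes, all of them with the mutant arrays above the wild type arrays (21.6%, background 5.89%), and in 0 with the mutant arrays below (background 2.88%). In 17 genes the mutant array was the higher one in every pair (45.9%, background 20%). The lowest of the 6 arrays was wild type replicate 3 in 20 of 37 genes, and over all genes in 32.4%. Without that array the median difference of the genes was 0.10, beside -0.002 over all genes.

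**Figure D1:**
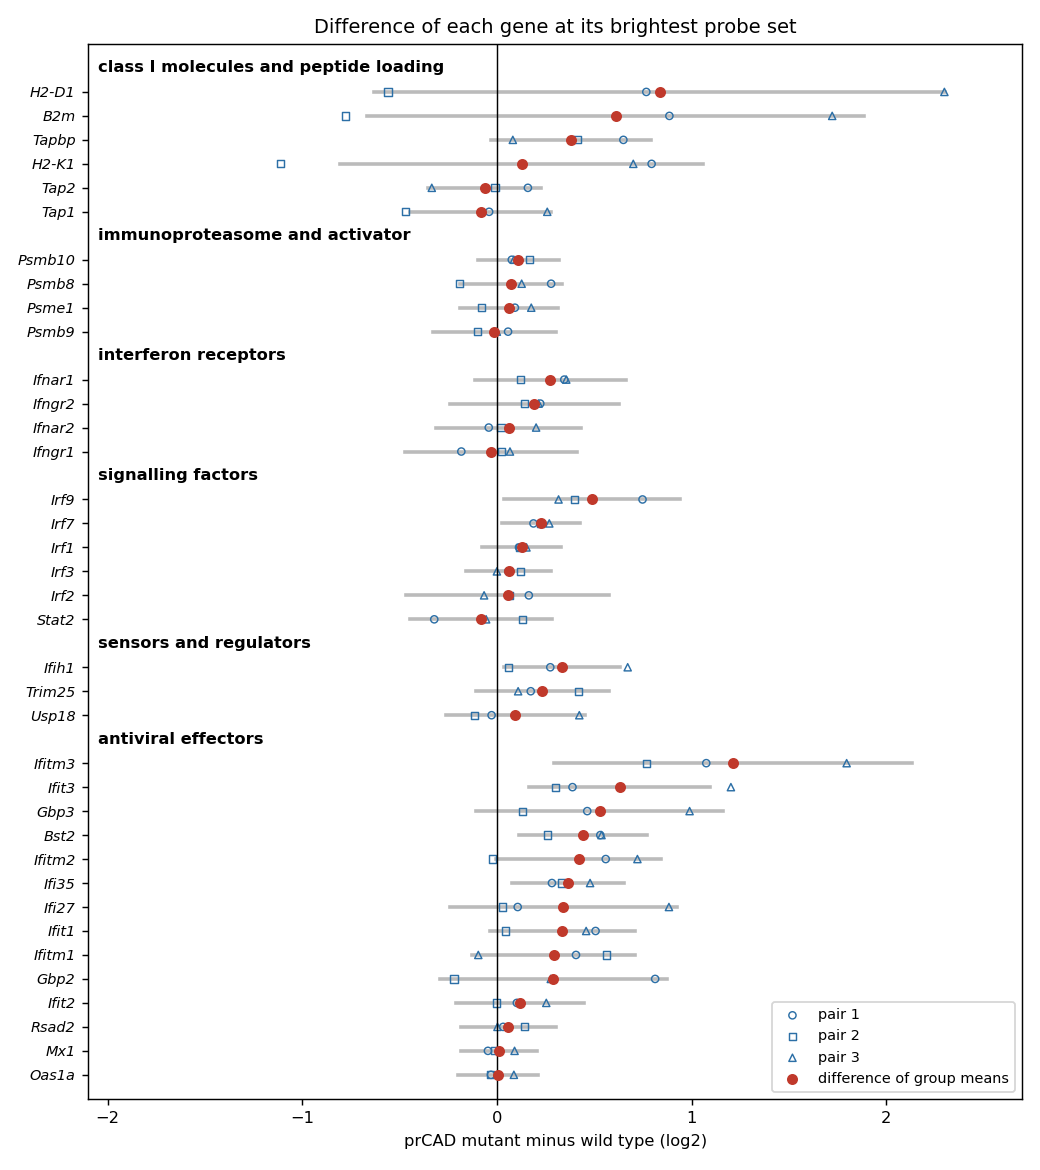
Difference between prCAD mutant and wild type retina for each of 37 genes, on the log2 scale, grouped by role. Red points are differences of group means, grey bars their 95% confidence intervals by limma, and open symbols the mutant minus wild type differences of arrays with the same number. The 14 effectors all lie to the right of 0, while the class I genes H2-D1, B2m and H2-K1 have the widest intervals and pairs on both sides.

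The antiviral effectors were the role with the largest median difference. They include proteins that block virus entry, translation or release, and other interferon-induced genes such as Ifi35 and Ifi27. All 14 measured effectors had a higher mean in mutant retina, with a median difference of 0.34 (quartiles 0.16 and 0.44) and pair medians of 0.40, 0.09 and 0.47. Ifit2, Oas1a, Mx1 and Rsad2 each turned to a lower mean when certain single arrays were left out, and the other 10 did not. At an unadjusted p under 0.05 there were 4 of 14 on the higher side (28.6%, background 2.33%), and 4 of 14 had mutant arrays above all wild type arrays (28.6%, background 5.89%). Averaged over the 14 genes, the level was 4.87, 5.12 and 4.88 in wild type and 5.24, 5.28 and 5.43 in mutant arrays, without overlap between groups.

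Ifitm3 encodes a membrane protein that restricts the entry of enveloped viruses. It read 5.62, 6.80 and 6.15 on the wild type arrays 1 to 3 and 6.69, 7.56 and 7.95 on the mutant arrays. Wild type replicate 2 lay just above mutant replicate 1, so the groups overlapped, although the mutant array was higher in each pair, by 1.08, 0.77 and 1.80. The group means were 6.19 ± 0.59 and 7.40 ± 0.64 (SD, n = 3 each), a difference of 1.21 (SE 0.39, limma, unadjusted p = 0.0168, adjusted p = 1.00). Ifitm2, its relative in the same gene cluster, differed by 0.42 (SE 0.18), and Ifitm1 by 0.29 (SE 0.18).

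Ifit3, of a family of proteins that bind foreign or uncapped RNA, read 5.93, 6.06 and 5.31 in wild type and 6.32, 6.36 and 6.52 in mutant arrays. The groups did not overlap, and wild type replicate 3 was the lowest array. The difference was 0.63 (SE 0.20, 95% confidence interval 0.17 to 1.10), and 0.40 without wild type replicate 3. Ifit1 read 3.60, 4.11 and 3.96 in wild type and 4.11, 4.16 and 4.42 in mutant arrays, a difference of 0.34 (SE 0.16) at levels below 4.76, the median over all probe sets. Mutant replicate 1 of Ifit1 lay just below wild type replicate 2, so those groups overlapped. Ifit2 differed by 0.12 (SE 0.14).

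Bst2, which encodes tetherin and holds budding viruses at the cell surface, read 4.87, 4.83 and 4.53 in wild type and 5.40, 5.09 and 5.07 in mutant arrays. Every mutant array lay above every wild type array, at a difference of 0.44 (SE 0.14, limma, unadjusted p = 0.0156, adjusted p = 1.00). Ifi35, an interferon-induced protein, read 5.48, 5.38 and 5.11 in wild type and 5.76, 5.71 and 5.58 in mutant arrays, again without overlap. Its difference was 0.36 (SE 0.12), and its other probe sets differed by 0.31 and 0.27, also without overlap.

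Gbp3, an interferon-inducible GTPase, read 3.25, 3.52 and 3.65 in wild type and 3.71, 3.65 and 4.64 in mutant arrays. The groups touched without overlapping, and mutant replicate 3 stood well above the others. All 6 arrays lay below the median of 4.76, and the difference was 0.53 (SE 0.27), or 0.21 without mutant replicate 3. Gbp2, of the same family, differed by 0.29 (SE 0.25).

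Oas1a, Rsad2 and Mx1 had differences near 0. Oas1a, which makes the oligoadenylates that activate RNase L, differed by 0.01 (95% confidence interval -0.20 to 0.21) at a mean of 6.82 in both groups. Rsad2, which encodes viperin, differed by 0.06 (95% confidence interval -0.19 to 0.30). Mx1, a GTPase gene that is disrupted in most laboratory mouse strains, read 2.79 ± 0.03 and 2.80 ± 0.04 (SD, n = 3 each), far below the median level, and differed by 0.01 (95% confidence interval -0.18 to 0.20). Ifi27, an interferon-induced gene, differed by 0.34 (SE 0.25), and its other probe set by 0.31. It was highest on mutant replicate 3, and without that array the difference was 0.05. The effectors thus ran from differences near 0 to more than 1 on the log2 scale.

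**Figure D2:**
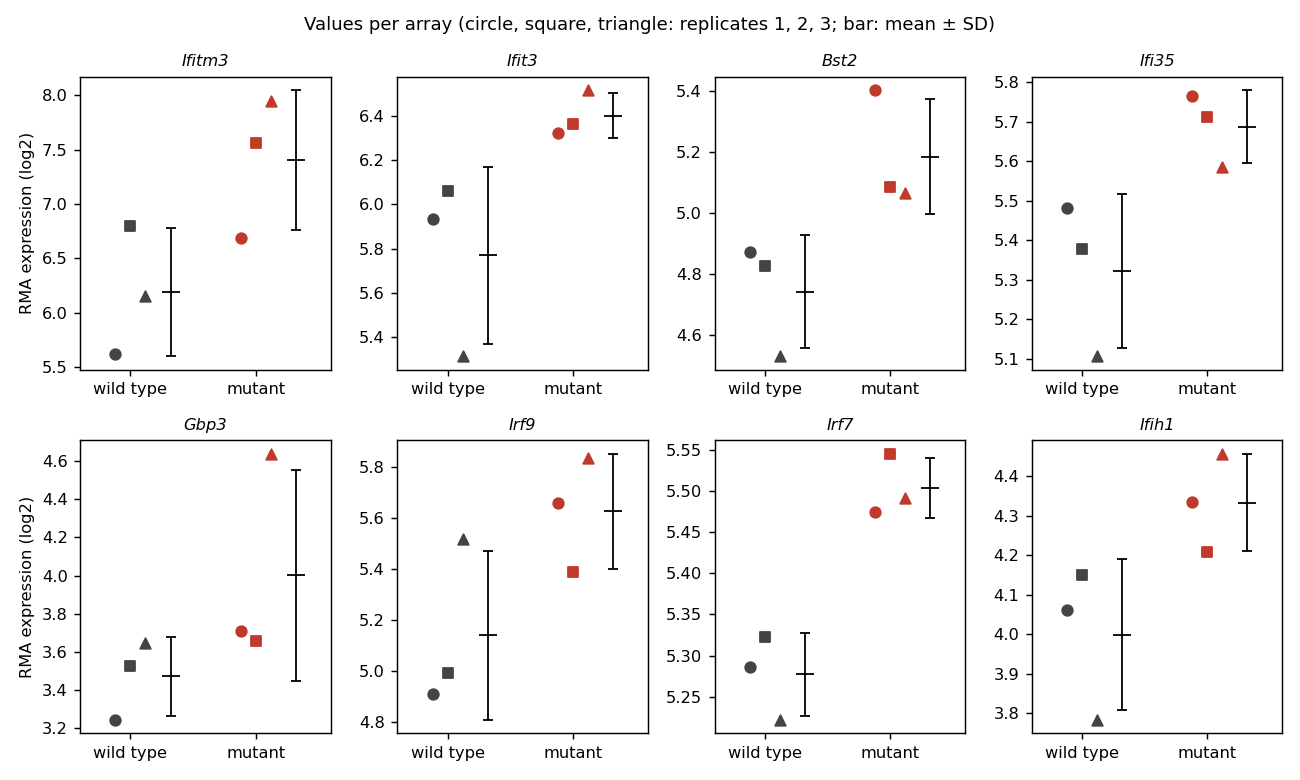
RMA expression (log2) of 8 genes on each of the 6 arrays, for wild type (grey) and mutant (red); circles, squares and triangles mark replicates 1, 2 and 3, bars the mean ± SD, and each panel has its own axis. All mutant points lie above all wild type points in Ifit3, Bst2, Ifi35, Gbp3, Irf7 and Ifih1, but not in Ifitm3 or Irf9.

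The promoters of these genes were searched for the core of the interferon-stimulated response element, GAAANNGAAA, a pair of GAAA half-sites, on both strands (TTTCNNTTTC on the other), with overlapping matches counted. Windows of 300 bases, from 250 before to 50 after the start of the transcript, came from RefSeq on build GRCm38.p6 and matched 35 of the 39 genes by symbol. The core was found in 15 of 35 genes (42.9%), beside 3.99% of 27025 genes and 3.44% of 32851 windows in the whole table. Of the measured effectors 9 of 12 held it (75%), and of the other measured genes 5 of 21 (23.8%). The 14 measured genes with the core had a median difference of 0.34, and the 19 without it 0.13. Among those with the core the median was 0.42 for the 9 effectors and 0.06 for the 5 other genes, below that of the genes without it, and no difference between these groups was tested. A match describes the letters of the window, not binding. Of the windows below, the first 3 belong to effectors with differences of 0.44 to 1.21, the fourth to Oas1a, which holds the core but did not differ visibly, and the last to B2m. Each is written 5′ to 3′ on the strand of the gene with the core in capitals.
Ifitm3, chr7:141010695-141010994, minus strand: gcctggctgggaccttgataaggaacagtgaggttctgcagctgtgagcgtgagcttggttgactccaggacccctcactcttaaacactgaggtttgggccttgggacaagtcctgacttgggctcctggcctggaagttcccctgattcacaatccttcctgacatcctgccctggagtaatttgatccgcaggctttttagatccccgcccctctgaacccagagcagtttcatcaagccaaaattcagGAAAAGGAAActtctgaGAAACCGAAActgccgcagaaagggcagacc
Ifit3, chr19:34583279-34583578, plus strand: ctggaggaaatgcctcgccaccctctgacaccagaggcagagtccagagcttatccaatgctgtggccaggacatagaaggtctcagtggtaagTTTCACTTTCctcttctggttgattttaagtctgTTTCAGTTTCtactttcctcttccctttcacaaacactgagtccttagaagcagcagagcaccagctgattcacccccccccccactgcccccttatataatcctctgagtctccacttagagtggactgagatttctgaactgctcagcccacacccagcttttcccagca
Bst2, chr8:71537423-71537722, minus strand: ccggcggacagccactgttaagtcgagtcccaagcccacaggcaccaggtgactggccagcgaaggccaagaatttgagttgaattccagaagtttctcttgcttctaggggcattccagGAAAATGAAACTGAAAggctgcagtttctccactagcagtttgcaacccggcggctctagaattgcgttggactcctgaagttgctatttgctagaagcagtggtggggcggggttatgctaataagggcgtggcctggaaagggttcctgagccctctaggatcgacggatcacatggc
Oas1a, chr5:120907476-120907775, minus strand: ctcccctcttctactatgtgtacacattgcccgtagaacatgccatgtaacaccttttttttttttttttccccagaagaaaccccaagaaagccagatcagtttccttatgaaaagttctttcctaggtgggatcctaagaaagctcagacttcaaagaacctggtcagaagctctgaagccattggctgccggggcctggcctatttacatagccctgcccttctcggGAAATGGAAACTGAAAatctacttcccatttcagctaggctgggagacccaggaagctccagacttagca
B2m, chr2:122147437-122147736, plus strand: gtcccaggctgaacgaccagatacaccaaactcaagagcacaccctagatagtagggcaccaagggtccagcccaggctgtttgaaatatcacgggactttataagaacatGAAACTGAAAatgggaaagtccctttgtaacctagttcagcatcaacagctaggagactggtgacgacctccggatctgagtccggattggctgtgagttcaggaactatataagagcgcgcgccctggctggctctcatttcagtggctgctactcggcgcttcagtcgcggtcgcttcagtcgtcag

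In the window of Ifitm3 the core starts 3 and 20 bases after the transcript start, counted with the first transcribed base as 1. In Ifit3 it starts 156 and 122 bases before that start, in Bst2 130 and 124 bases before it, and in Oas1a 20 and 14 bases before it. The matches of Bst2 overlap each other, as do those of Oas1a. In B2m there is 1 match, starting 139 bases before the start. Irf7, Irf9 and Ifi35, which were among the genes with an unadjusted p under 0.05, hold no match in their windows. Isg15, which could not be read on the arrays, holds 3.

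Class I molecules present peptides from inside the cell, with B2m as their light chain. Their levels varied more between wild type pools than between genotypes. B2m read 7.34, 9.21 and 6.96 in wild type and 8.23, 8.44 and 8.68 in mutant arrays. The wild type arrays held both the highest and the lowest value, while the mutant arrays lay close together between them. The difference was 0.61 (SE 0.54, 95% confidence interval -0.67 to 1.89), with pairs of 0.89, -0.78 and 1.72.

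H2-D1, a class I heavy chain gene, read 7.52, 8.69 and 5.88 in wild type and 8.29, 8.13 and 8.18 in mutant arrays at its brightest probe set. Here too wild type replicate 2 was the highest and replicate 3 the lowest array. The difference of 0.84 (SE 0.62) was 0.09 without wild type replicate 3 and 1.50 without wild type replicate 2. H2-K1, the other heavy chain gene, read 7.61, 9.21 and 8.07 in wild type and 8.41, 8.10 and 8.77 in mutant arrays, a difference of 0.13 (SE 0.39). It was 0.58 without wild type replicate 2, -0.21 without wild type replicate 1 and -0.04 without mutant replicate 3. For B2m the difference was 0.17 without wild type replicate 3, 0.36 without wild type replicate 1 and 1.30 without wild type replicate 2. With array weights H2-D1, B2m and H2-K1 differed by 0.21, 0.15 and -0.27, and the mean of all H2-D1 probe sets differed by 0.06.

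The SD of the wild type arrays was 1.41 for H2-D1, 1.21 for B2m and 0.82 for H2-K1, at percentiles of 99.9, 99.9 and 99.5 among the 18193 genes. In mutant arrays the SD was 0.08, 0.23 and 0.34, at percentiles of 24.6, 78.9 and 92.9. These spreads describe 3 pools a group, and a difference in spread was not tested.

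The 9 probe sets of H2-D1 did not move together. On wild type replicate 3 the brightest differed by -2.28 from the mean of the other 5 arrays, and the next by level by -1.72. In contrast, probe sets 1425614_x_at, 1452544_x_at and 1427651_x_at lay 1.86, 1.44 and 0.99 above that mean and were highest on that array. For 1425614_x_at the reading was 6.01 on wild type replicate 3 and between 4.02 and 4.25 on the other 5 arrays. Of the 9 probe sets wild type replicate 3 was the lowest array in 5, the highest in 3 and between in 1. Class I genes are near-identical in sequence and highly variable between mouse strains, and 7 of 9 H2-D1 and 4 of 4 H2-K1 probe sets carry the suffix _x_at, with which the manufacturer marks probes that can bind other transcripts. Values of single class I genes are uncertain for that reason. The 3 probe sets differed between mutant and wild type by -0.60, -0.62 and -0.44, against 0.84 and 0.59 for the brightest pair.

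**Figure D3:**
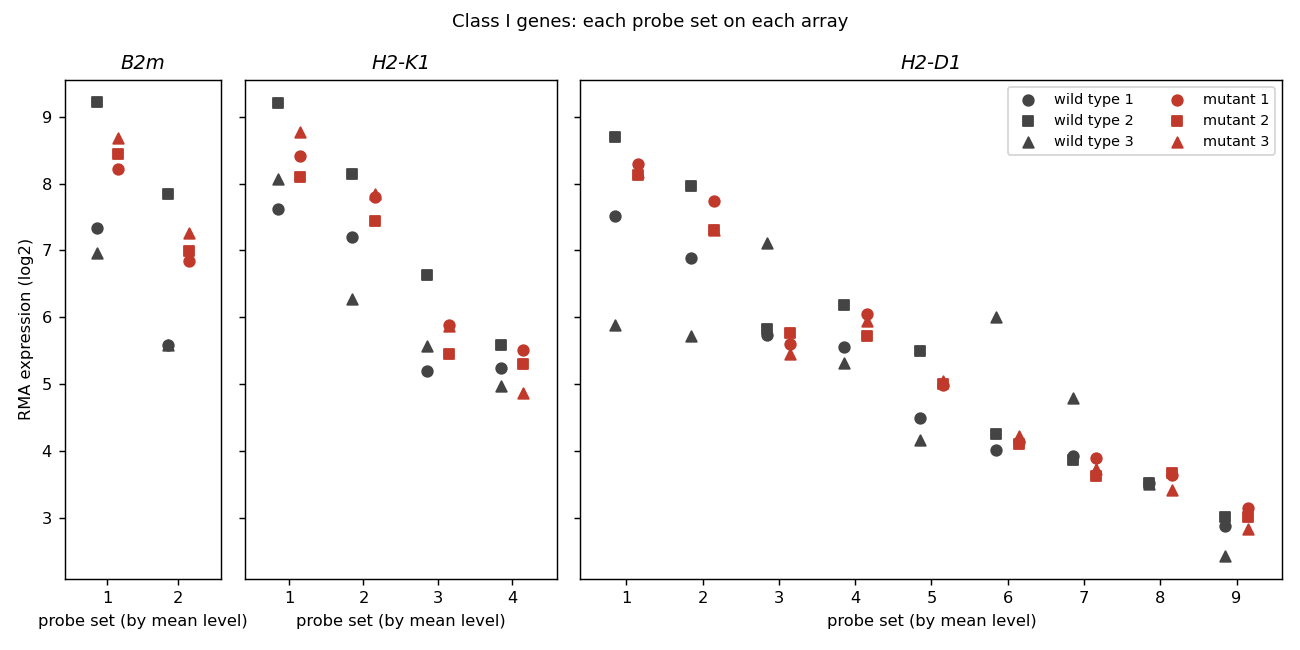
RMA expression (log2) of every probe set of B2m, H2-K1 and H2-D1 on each array, with probe sets ordered by mean level; grey is wild type, red mutant, and circles, squares and triangles are replicates 1, 2 and 3. Wild type replicate 2 is the highest array at the brightest probe set of each gene, and wild type replicate 3 lies apart in opposite directions at different H2-D1 probe sets.

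Of the genes that load peptides onto class I molecules, Tap1 and Tap2 differed little and Tapbp had a higher mean in the mutant. Tap1, a subunit of the peptide transporter, read 4.68, 5.11 and 4.60 in wild type and 4.64, 4.64 and 4.86 in mutant arrays, a difference of -0.08 (SE 0.15) with overlapping groups. Its other probe sets, all dimmer, differed by 0.21, -0.005 and 0.17. Tap2, the partner subunit, differed by -0.06 (SE 0.12). Tapbp, which encodes tapasin and bridges the transporter to class I molecules, read 7.38, 7.50 and 7.31 in wild type and 8.03, 7.91 and 7.39 in mutant arrays. The mutant array was higher in each pair, by 0.65, 0.41 and 0.08, although mutant replicate 3 lay below wild type replicate 2. The difference of Tapbp was 0.38 (SE 0.17), with an unadjusted p of 0.0639, or 0.0196 with the replicate block (adjusted p = 0.600, limma), and its other probe set differed by 0.10. Over the 6 genes of class I molecules and loading the median difference was 0.25, with pair medians of 0.71, -0.52 and 0.48, so the second pair ran against the others.

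The immunoproteasome is a form of the proteasome, with subunits induced by interferon, that cuts proteins into peptides suited to class I molecules. Its genes were nearly level between genotypes. Psmb8 read 5.04, 5.34 and 5.12 in wild type and 5.32, 5.15 and 5.24 in mutant arrays, a difference of 0.07 (95% confidence interval -0.19 to 0.33). Psmb9 read 4.64, 4.76 and 4.40 in wild type and 4.70, 4.66 and 4.40 in mutant arrays, a difference of -0.01 (95% confidence interval -0.33 to 0.30). Both genes thus had overlapping groups. Psmb10 read 6.49, 6.50 and 6.43 in wild type and 6.56, 6.67 and 6.52 in mutant arrays. Its groups did not overlap, but the difference was only 0.11 (SE 0.09, unadjusted p = 0.247, adjusted p = 1.00 by limma). Psme1, a subunit of the proteasome activator PA28, differed by 0.06 (SE 0.11). The role's median difference was 0.07. A list of 10 other proteasome and activator genes, some of them subunits that the immunoproteasome shares, had a median of -0.03 with 4 of 10 higher. Of these, Psma1 differed by 0.11, and Psme3, Psmb7 and Psme4 by -0.16, -0.14 and -0.04. Psmb5 and Psmb6 differed by 0.002 and 0.02. Psmb9 and Tap1 lie head to head on chromosome 17, and their promoter windows, chr17:34187281-34187580 on the minus strand and chr17:34187306-34187605 on the plus strand, overlap and hold no match to the core.

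Interferon receptors were measured at middle levels. Ifnar1, a chain of the type I interferon receptor, read 6.21, 6.06 and 5.76 in wild type and 6.55, 6.18 and 6.11 in mutant arrays. The groups overlapped, but the mutant array was higher in each pair, at a difference of 0.27 (SE 0.16). A dim second probe set of Ifnar1 differed by -0.36. Ifngr1, the ligand-binding chain of the interferon gamma receptor, read 6.66, 6.80 and 6.24 in wild type and 6.48, 6.82 and 6.31 in mutant arrays, a difference of -0.03 (95% confidence interval -0.47 to 0.41). Ifngr2 differed by 0.19 (SE 0.18) and Ifnar2 by 0.06 (SE 0.16), and at a second probe set Ifngr2 differed by -0.02. All 4 receptor genes were lowest in wild type on replicate 3, and the median difference of the role was 0.13.

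Among the signalling factors, Irf7 and Irf9 were the higher ones in mutant retina. Irf7, the interferon-induced factor that amplifies type I interferon production, read 5.29, 5.32 and 5.22 in wild type and 5.47, 5.55 and 5.49 in mutant arrays. The groups were tight and did not overlap, at a small difference of 0.23 (SE 0.08, limma, unadjusted p = 0.0304, adjusted p = 1.00). Irf9, the DNA-binding subunit of the complex with STAT2, read 4.91, 4.99 and 5.52 in wild type and 5.66, 5.39 and 5.83 in mutant arrays. Wild type replicate 3 lay above mutant replicate 2, so the groups overlapped, while each pair was higher in the mutant, by 0.75, 0.40 and 0.32. The difference of Irf9 was 0.49 (SE 0.19), with an unadjusted p of 0.0384, or 0.00383 with the replicate block (adjusted p = 0.453, limma).

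The other factors differed by less than 0.2. Irf1, a factor induced by interferon gamma, read 6.51, 6.52 and 6.40 in wild type and 6.62, 6.64 and 6.56 in mutant arrays. These groups did not overlap, at a difference of 0.13 (SE 0.09). Stat2 read 6.08, 5.49 and 5.76 in wild type and 5.76, 5.62 and 5.71 in mutant arrays, a difference of -0.08 (SE 0.15). Irf3, which carries the signal of virus sensors, differed by 0.06 (SE 0.09), and its other probe sets by 0.16, 0.005 and 0.15. Irf2, a counterpart of Irf1, differed by 0.05 (SE 0.22) at a level below the median. The 6 factors had a median difference of 0.09.

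Ifih1, which encodes the cytosolic double-stranded RNA sensor MDA5, read 4.06, 4.15 and 3.78 in wild type and 4.34, 4.21 and 4.46 in mutant arrays. The groups did not overlap, at levels below the median, and the difference was 0.33 (SE 0.13, limma, unadjusted p = 0.0335, adjusted p = 1.00). Trim25, a ubiquitin ligase that activates the RNA sensor RIG-I, differed by 0.23 (SE 0.14), and by 0.27 and -0.08 at its other probe sets. Usp18, which removes ISG15 from proteins and damps type I interferon signalling, differed by 0.09 (SE 0.15) and was highest on mutant replicate 3. These genes had a median difference of 0.23.

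**Figure D4:**
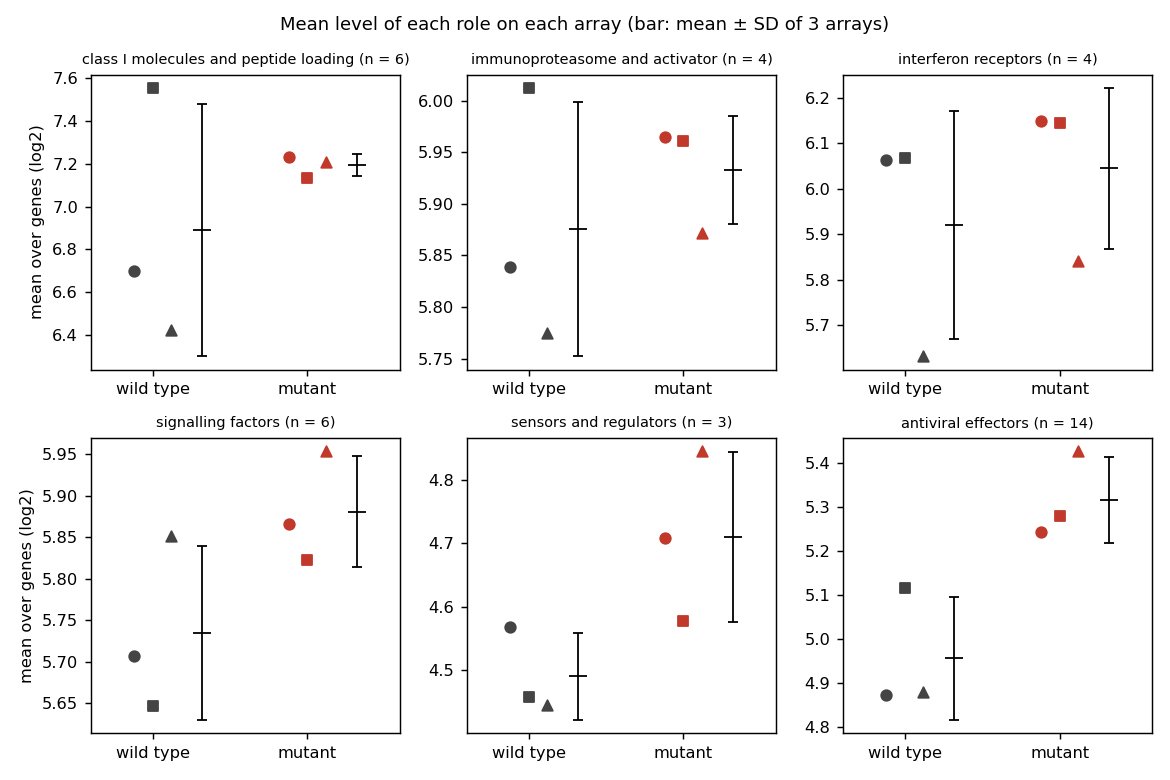
Mean log2 level over the genes of each role on each array, with wild type in grey, mutant in red, replicates 1 to 3 as circles, squares and triangles, and bars for the mean ± SD of 3 arrays; each panel has its own axis and starts above 0. The mutant arrays lie above all wild type arrays for the effectors. They do so only narrowly for the 3 sensors and regulators (lowest mutant array 4.58, highest wild type array 4.57). For the class I role they lie inside the wild type range.

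A further 89 genes of the same pathways were listed, of which 79 were measured. By limma 0 of 79 were called (background 0.0165%), and at an unadjusted p under 0.05 there were 7 higher (8.86%, background 2.33%) and 0 lower (background 1.09%). The median difference was 0.04, below the 0.19 of the genes described above, and 55 of 79 had a higher mean in the mutant (69.6%, background 58.4%). The interferon-induced genes among them had a median of 0.04 over 37 genes, beside 0.34 for the effectors described above, a gap that was not tested.

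Xaf1, an interferon-induced regulator of cell death, had the largest difference of these 79. It read 5.04, 5.63 and 4.35 in wild type and 6.29, 6.19 and 6.77 in mutant arrays, a difference of 1.41 (limma, adjusted p = 1.00). Parp14, an ADP-ribosyltransferase, read 4.21, 4.31 and 4.10 in wild type and 4.70, 4.91 and 4.69 in mutant arrays, a difference of 0.56 (adjusted p = 0.658). Both genes had groups that did not overlap. Lgals3bp differed by 0.55 and Ifitm7 by 0.25, also without overlap, whereas Cxcl9 and Cxcl10, chemokines induced by interferon gamma, differed by -0.21 and 0.11.

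Among other antigen presentation genes, Ctss, a lysosomal protease of the class II pathway, differed by 0.85 (adjusted p = 0.920), Pdia3 by 0.35, Tapbpl by 0.22 and Calr by 0.20. Pdia3 and Calr encode chaperones of class I assembly. The class II genes H2-Aa, H2-Ab1, H2-Eb1 and Cd74 differed by -0.01, -0.12, 0.14 and 0.03. Of the other factors and sensors, Ciita, the activator of class II genes, differed by 0.28, Nlrc5, that of class I genes, by 0.22, Trim56 by 0.18 and Irf5 by 0.16. The interferon genes Ifnb1 and Ifng read between 3.41 and 4.45 and between 2.82 and 2.99 over the 6 arrays, below the median level, and differed by 0.24 and 0.01. Jak1, a kinase of the receptors, differed by -0.26, Ptpn2, a phosphatase of the pathway, by 0.14 and Jak2 by 0.03.

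Markers of some other cell types were also higher in mutant retina, and their part in the differences was not tested. Over all genes 58.4% had a higher mean in the mutant. Of 14 microglia and macrophage markers 13 had a higher mean in the mutant, and their summed level was 8.81 to 8.90 in wild type and 9.06 to 9.17 in mutant arrays on the log2 scale. On replicate 3 this sum, in which bright genes weigh most, was the highest of the wild type arrays (8.90) and the lowest of the mutant arrays (9.06). Single markers differed in this. Wild type replicate 3 was the highest wild type array for Csf1r, C1qb, Cd68 and Fcer1g. It was the lowest of them for C1qa, Trem2, Tyrobp, Aif1, Itgam and Tmem119, and lay between for the others. On replicate 3 the mean of the interferon set was the lowest of the wild type arrays (5.43) and the highest of the mutant arrays (5.85). How these orders relate was not tested. Of these 14 markers 6 had a mean below the median level of all probe sets, the lowest being Ptprc at 2.83 and the highest Csf1r at 7.28. The mutant arrays lay above all wild type arrays for C1qa, C1qc, Csf1r and Cx3cr1, which differed by 0.55, 0.47, 0.35 and 0.17 (background 5.89%). The groups overlapped for the other markers of this list. Among these, Cd68, Tmem119, Aif1, Fcer1g, Ptprc and P2ry12 differed by 0.37, 0.09, 0.04, 0.02, 0.01 and -0.01. Of 11 pigment epithelium markers 10 were higher, with summed levels of 9.78 to 10.80 and 11.09 to 11.60, and wild type replicate 3 was the lowest. Müller glia and astrocyte markers were higher in 6 of 8, at 12.50 to 12.92 and 12.86 to 13.28, and lens markers in 8 of 8, at 13.53 to 14.88 and 14.47 to 15.03. For T and NK cells 7 of 11 markers were higher (background 58.4%), with summed levels of 8.22 to 8.26 and 8.24 to 8.31. Of these 11 markers 8 had a mean below the median level, while Cd3e, Cd4 and Cd8a had means of 6.08, 5.75 and 5.57 and differed by -0.01, 0.12 and 0.04. Endothelium (5 of 8 higher), B cells (2 of 4), neutrophils and monocytes (3 of 5) and red blood cells (3 of 4) had summed levels that differed by 0.04, 0.08, 0.09 and 0.14. No RMA value is 0, so a marker of an absent cell type still reads a background value. A level alone therefore does not show that a cell type is present.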

How the data were processed

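The authors deposited log2 expression values made with RMA, per the submitters' processing notes, with no version given. RMA subtracts background, gives all arrays the same distribution and combines the probes of each probe set, so a change in total signal is not visible. The table holds 45101 probe sets, of which 64 manufacturer controls were left out. In the platform annotation 34945 probe sets had 1 gene symbol, 932 several and 9160 none here. Groups followed the sample titles.

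Tests used limma 3.58.1 (lmFit and eBayes, R 4.3.3) on group alone, adjusted by Benjamini-Hochberg over all 45037 probe sets at a threshold of 0.05, and every test is two-sided. Unadjusted p-values printed are from the same fit. The steps were tested on simulated data. Both groups carry replicate numbers 1 to 3. After group means were subtracted, arrays sharing a number correlated at 0.477, 0.469 and 0.563 over all probe sets (0.590, -0.0269 and 0.225 over the genes of the set), so a fit with the number as a block was made as an alternative, a pairing read from the data alone.

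The genes, lists and rule for named genes were chosen with earlier results of these data known. Every gene of the set was named, with the value on every array where its unadjusted p was under 0.05, its groups did not overlap, or it anchors a role. Of the further pathway genes, those with the smallest p in each list were named (up to 4), and Xaf1, class II genes, interferon genes, Cxcl9 and Cxcl10 beside them, some after their values were seen. A marker list's summed level is the log2 of the sum of linear values. Figures used matplotlib 3.10.9.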

Additional observations from a re-analysis of the deposited data

How the results depend on the processing

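With 3 pools a group the SE of a difference ran from 0.08 (Mx1) to 0.62 (H2-D1), and dim genes such as Mx1, Gbp3 and Ifih1 are limited by background. Under all 19 alternative settings 0 genes of the set and 0 of the further pathway genes were called. Of 671 single differences recomputed, 628 kept their sign and 43 did not. The median difference of the set ran from 0.10 (without wild type replicate 3) to 0.23 (only probe sets above the median level in at least 3 arrays).

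Probe sets called numbered 5, but 15 with the replicate block, 25 with array weights, 3 without the _s_at, _x_at and _a_at probe sets, and 1, 1 and 16 without both arrays of replicates 1, 2 and 3. Leaving out single arrays gave 2 to 9. The count of genes of the set with an unadjusted p under 0.05 was 7 (3.42% of all genes, in both directions). It was 13 with the replicate block (7.44%), 8 with array weights (8.93%) and 4 without the _s_at, _x_at and _a_at probe sets (3.45%). Without both arrays of replicates 1, 2 and 3 it was 2, 8 and 6 (1.45%, 1.59% and 6.08%). Without single arrays it was 2 to 10, while the share of all genes ran from 2.39% to 5.24%. The count of genes whose groups did not overlap was 8, but 5 without those probe sets. It was 14, 20 and 15 without both arrays of replicates 1, 2 and 3, and 9 to 19 without single arrays. Fewer arrays overlap less often by construction. Shares over all genes are not given for these settings, so these counts are no result about the set. With the replicate block, as without it, 0 genes of the set were called.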
